A study of Rattus norvegicus with 48 samples.

Results

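Alas2 was examined over all 48 libraries of the series, as 1 of 31998 genes in the deposited table of estimated counts (identifier ENSRNOG00000000167). The gene had been chosen from these data for a rise under immobilization in HRT muscles and little change in LRT muscles, so its levels by line and treatment are described and carry no test. The libraries came from plantaris and soleus muscle of 24 female rats of 14 months and generation 19, bred in separate lines for a low response (LRT) or a high response (HRT) of running capacity to endurance training. By the paper, rats of both lines had themselves done treadmill training earlier in life, and the age of 14 months was chosen to lengthen the time since then. In each line 6 rats had 1 hindlimb cast in plantar-flexion for 3 d (HI) and 6 other rats were left uncast (CTRL), which gave 8 groups of 6 libraries. The methods give a puromycin injection before muscle collection, and the paper reports puromycin-based protein synthesis for CTRL rats as well as HI rats. The lines carry no transgene, and CTRL values come from other rats, not from the free limb of the cast rats.

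Alas2 encodes the erythroid form of 5-aminolevulinate synthase, the enzyme that joins glycine and succinyl-CoA in the mitochondrion at the start of heme synthesis. It is made in developing red cells, where GATA1 drives its transcription and iron controls its translation, whereas other tissues rely on the housekeeping form encoded by Alas1. Young red cells that have lost the nucleus, the reticulocytes, still carry Alas2 and hemoglobin mRNA in the blood.

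The library totals lay between 26.8 M and 36.4 M counts, and RNA integrity numbers (RIN) between 7.8 and 8.6. Alas2 had between 88 and 5838 counts per library, so no library was without it. Of the 6 fast-fibre genes fixed as labels of the muscle, 4 were higher in each plantaris library than in any soleus library (Pvalb, Mylpf, Atp2a1 and Myoz1) and Casq1 and Eno3 overlapped. Of the 3 slow-fibre genes, Casq2 was higher in each soleus library than in any plantaris library, and Pln and Fabp3 overlapped. In HRT HI the libraries numbered 5 stood apart from the others in both muscles for Alas2 and for hemoglobin. Values without these libraries are given beside the results that they move.

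The sequences just upstream of Alas2, Hba-a1 and Hbb are shown because these genes moved together across the libraries, as described further on. They are the 250 bases before the start that RefSeq gives on build GRCr8, at chrX:22895200-22895449 (+) for Alas2, chr10:15842581-15842830 (-) for Hba-a1 and chr1:167663722-167663971 (-) for Hbb. Capitals mark AGATAA or TGATAA, the letters that GATA factors are known to bind, searched on both strands.
Alas2: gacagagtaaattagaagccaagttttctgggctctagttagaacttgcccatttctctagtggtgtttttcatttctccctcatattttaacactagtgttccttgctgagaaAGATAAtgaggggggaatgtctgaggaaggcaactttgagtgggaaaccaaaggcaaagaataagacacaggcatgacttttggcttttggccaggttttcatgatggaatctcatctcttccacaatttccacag
Hba-a1: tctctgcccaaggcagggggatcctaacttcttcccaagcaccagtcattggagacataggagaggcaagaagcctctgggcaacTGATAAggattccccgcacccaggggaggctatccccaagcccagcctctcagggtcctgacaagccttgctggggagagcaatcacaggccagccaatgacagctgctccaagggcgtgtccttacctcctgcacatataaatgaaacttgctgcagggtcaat
Hbb: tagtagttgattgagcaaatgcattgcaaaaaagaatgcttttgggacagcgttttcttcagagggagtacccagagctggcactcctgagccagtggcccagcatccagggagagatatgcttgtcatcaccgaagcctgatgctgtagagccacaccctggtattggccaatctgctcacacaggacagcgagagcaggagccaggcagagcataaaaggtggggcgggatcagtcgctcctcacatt
Alas2 had 1 AGATAA, which began 136 bases before the start, and Hba-a1 had 1 TGATAA, which began 165 bases before it. Hbb had neither in this window. Of the windows not shown, Hba-a2 had 1 TGATAA, which began 165 bases before the start, and Hba-a3 had neither. That of Lgals5, a gene described further on, had 1 AGATAA on the opposite strand. Of 33469 upstream windows of the same length, 16.9% held AGATAA or TGATAA on either strand. The Alas2 window lies inside the span that RefSeq gives to the gene, which starts at position 22890650 of chromosome X, so it may not hold the promoter used in red cells. The windows of Hba-a1 and Hba-a2 were identical at 241 of 250 aligned bases, an example of the close copies among the hemoglobin genes. Their counts can be shared out between copies by the quantifier, and the 6 hemoglobin genes (Hba-a1, Hba-a2, Hba-a3, Hbb, LOC103694855 and LOC103694857) were therefore summed.

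In HRT plantaris Alas2 was low and even without a cast and higher with it. The CTRL libraries ran from 4.16 CPM (counts scaled to the library size after TMM normalization) through a median of 4.85 to 5.63 CPM. The HI libraries ran from 5.19 through 7.94 to 47.2 CPM, and 5 of 6 lay above every CTRL library. The mean was 14.1 ± 16.3 (SD, n = 6) in HI and 4.84 ± 0.548 (SD, n = 6) in CTRL, and the edgeR estimate of the log2 fold change was 1.62 ± 0.58 (SE). The highest library was number 5, and without both HRT HI libraries of that number the log2 fold change was 0.61 ± 0.37 (SE). In whole muscle, more cells that carry the transcript and more transcript per cell cannot be told apart.

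HRT soleus had the widest spread of the 8 groups. The CTRL libraries ran from 3.34 through a median of 5.0 to 10.3 CPM. The HI libraries ran from 5.17 through 20.6 to 187 CPM, and 4 of 6 lay above every CTRL library. The other two HI libraries, at 5.17 and 9.20 CPM, fell within the CTRL range. The log2 fold change was 2.86 ± 0.63 (SE), and 1.59 ± 0.37 (SE) without the libraries numbered 5. RIN ran from 7.8 to 8.2 in these HI libraries and from 8.0 to 8.4 in CTRL, and the estimate without RIN in the model was 3.00 ± 0.58 (SE).

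The LRT muscles differed from each other in direction. In LRT plantaris the CTRL libraries ran from 5.02 through 6.16 to 17.1 CPM and the HI libraries from 3.49 through 5.81 to 9.91 CPM. No HI library lay above the CTRL range there, 2 lay below it, and the log2 fold change was -0.43 ± 0.56 (SE). In LRT soleus the CTRL libraries ran from 4.96 through 10.6 to 16.2 CPM and the HI libraries from 6.27 through 16.0 to 25.0 CPM. Here 2 of 6 HI libraries lay above every CTRL library and the log2 fold change was 0.54 ± 0.56 (SE). The label of little change in LRT thus covers a soleus whose HI median was higher than its CTRL median and a plantaris whose medians were close.

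**Figure D1:**
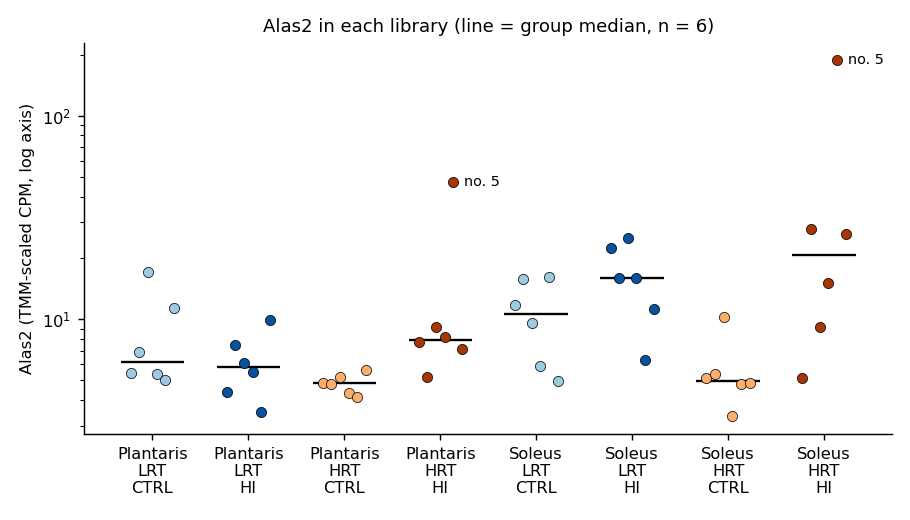
Alas2 in each of the 48 libraries, in TMM-scaled CPM on a log axis, for the 8 groups of muscle, line and treatment. Points are libraries in the order of their numbers, lines are group medians, and the HRT HI libraries numbered 5, at 47.2 CPM in plantaris and 187 CPM in soleus, are marked.

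DELTA, the log2 fold change of LRT minus that of HRT, was -2.05 ± 0.79 (SE) in plantaris and -2.32 ± 0.79 (SE) in soleus. Without the HRT HI libraries numbered 5 it was -1.11 ± 0.51 and -0.96 ± 0.50 (SE). The estimates of the lines also differed without a cast, though the groups overlapped. The log2 ratio of the CTRL medians, LRT over HRT, was 0.34 in plantaris and 1.09 in soleus. With single libraries left out, the lowest estimate was 0.51 in plantaris (without LRT CTRL number 3) and 0.69 in soleus (without LRT CTRL number 2). Without a cast, LRT exceeded HRT by a log2 fold change of 0.83 ± 0.57 in plantaris and 0.89 ± 0.56 (SE) in soleus, and in each muscle 3 of 6 LRT CTRL libraries lay above every HRT CTRL library. With the cast, LRT was below HRT by -1.21 ± 0.56 in plantaris and -1.43 ± 0.55 (SE) in soleus, but by -0.29 ± 0.37 and -0.03 ± 0.36 (SE) without the libraries numbered 5. In the fit of all libraries part of DELTA thus came from the CTRL rats. Without the libraries numbered 5 most of it did, as -0.29 and -0.03 under the cast stood beside DELTA of -1.11 and -0.96. A difference between the lines without a cast was not tested. LRT and HRT CTRL libraries enter both DELTA and the comparison of uncast rats, so these values are not independent of each other. Summed hemoglobin differed between the uncast lines as well. Its mean log2 CPM, LRT minus HRT, was 0.54 ± 0.33 in plantaris and 0.90 ± 0.44 (SE) in soleus. For Alas2 the same difference was 0.66 ± 0.30 and 0.87 ± 0.36 (SE), and for Alas2 per hemoglobin count 0.12 ± 0.07 and -0.03 ± 0.10 (SE).

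Ordered by their medians, the groups ran from HRT CTRL plantaris (4.85 CPM) through HRT CTRL soleus (5.0), LRT HI plantaris (5.81), LRT CTRL plantaris (6.16), HRT HI plantaris (7.94), LRT CTRL soleus (10.6) and LRT HI soleus (16.0) to HRT HI soleus (20.6). The ranges of all 7 pairs of neighbours in this order overlapped.

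Plantaris against soleus within a group was not the contrast by which the gene was chosen. The choice did use the HI and CTRL values of both muscles, so the p-values of these comparisons are not free of it. Alas2 was lower in plantaris in each of the 4 comparisons by edgeR, with 0 of 4 past the threshold of an adjusted p of 0.05 and 0 of 4 under an unadjusted p of 0.05. DESeq2 called 1 of the 4 and limma-voom 0. Without a cast the log2 fold change of plantaris over soleus was -0.24 ± 0.57 (SE, adjusted p = 0.80 by edgeR) in LRT and -0.18 ± 0.57 (SE, adjusted p = 0.84 by edgeR) in HRT. With the cast it was -1.20 ± 0.66 (SE, adjusted p = 0.17 by edgeR) in LRT and -1.42 ± 0.73 (SE, adjusted p = 0.13 by edgeR) in HRT. The fit gave all groups a common estimate of the spread, so HRT HI number 5 also enters the SE of the LRT comparisons. From the libraries of the compared groups alone, mean log2 CPM differed by -1.34 ± 0.37 (SE) in LRT HI and -1.10 ± 0.86 (SE) in HRT HI. Over all 16960 tested genes 32.6% passed in LRT CTRL, 38.8% in HRT CTRL, 29.8% in LRT HI and 34.2% in HRT HI. In LRT HI the plantaris libraries ran from 3.49 to 9.91 CPM and the soleus libraries from 6.27 to 25.0 CPM, and 4 of 6 plantaris libraries lay below every soleus library.

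The replicate numbers paired the plantaris and soleus of the cast groups, where the deviations from the group means of each same-numbered pair correlated over 0.1 across genes. With the number as a replicate block, the plantaris deficit passed the threshold in LRT HI (-1.48 ± 0.43, SE, adjusted p = 0.010 by edgeR) and in HRT HI (-1.27 ± 0.43, SE, adjusted p = 0.023 by edgeR). It also passed in both without RIN in the model, at -1.40 (adjusted p = 0.044 by edgeR) and -1.68 (adjusted p = 0.012 by edgeR). The muscles differ in RIN, since the LRT HI libraries ran from 8.3 to 8.6 in plantaris and from 7.8 to 8.2 in soleus. Whether the muscle difference under the cast exceeded that without it was not tested.

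Hemoglobin mRNA varied with Alas2 from library to library. The summed hemoglobin genes ran from 225 to 14976 CPM over the 48 libraries, or from 0.0220% to 1.58% of all counts, and Alas2 from 3.34 to 187 CPM. Alas2 per 1000 hemoglobin counts ran only from 8.03 to 17.7, so that a 66.5-fold range of hemoglobin went with a 2.21-fold range of the ratio. Without the HRT HI libraries numbered 5 the range of hemoglobin was 9.72-fold, from 225 to 2188 CPM, that of Alas2 was 8.32-fold and that of the ratio was again 2.21-fold. The ratio compares libraries and says nothing of the numbers of molecules of each gene, since transcript lengths were not used here.

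**Figure D2:**
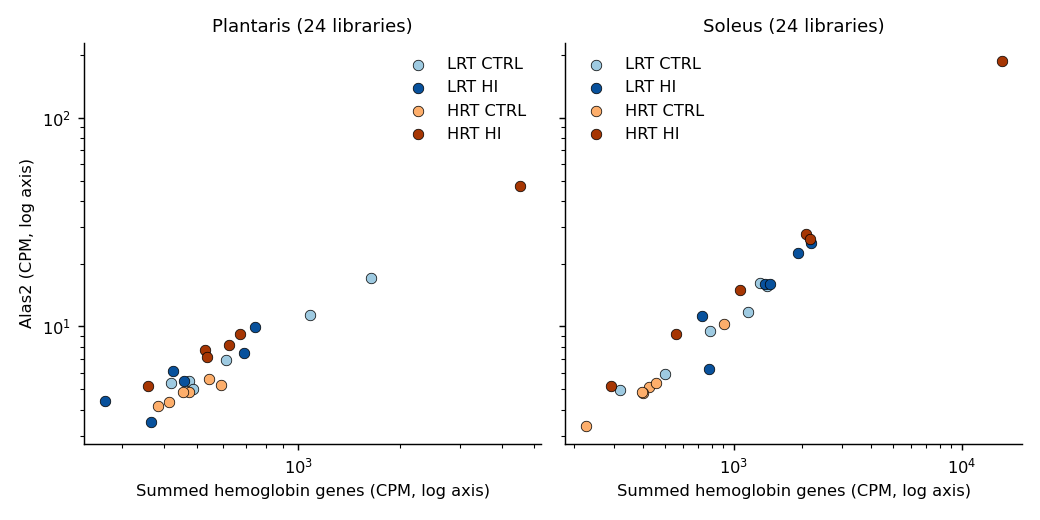
Alas2 against the summed 6 hemoglobin genes, both in TMM-scaled CPM on log axes, in the 24 plantaris (left) and 24 soleus (right) libraries. Colours are line and treatment, and the libraries of all groups lie along 1 band that ends with HRT HI number 5 at 4544 CPM hemoglobin in plantaris and 14976 CPM in soleus.

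The relation also held among libraries of the same group. Deviations from the group means of log2 Alas2 and log2 summed hemoglobin had Pearson r = 0.98 in plantaris (Spearman rho 0.95, n = 24) and r = 0.98 in soleus (rho 0.98, n = 24). Each p by permutation within groups was 1.0e-05, the smallest that 100000 resamples can give, and 3.5e-05 after Benjamini-Hochberg adjustment over 7 relations. Without the 2 libraries farthest from the median of hemoglobin, r was 0.94 in plantaris and 0.96 in soleus. Both measures come from the same library and are scaled by the same total.

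Slc4a1, which encodes the band 3 anion exchanger of the red cell membrane, had r = 0.76 with Alas2 in plantaris (permutation p = 0.023, adjusted p = 0.040, n = 24) and r = 0.82 in soleus (permutation p = 0.0016, adjusted p = 0.0037, n = 24). Spearman's rho was 0.43 in plantaris (permutation p = 0.057, adjusted p = 0.083) and 0.53 in soleus (permutation p = 0.016, adjusted p = 0.037). These relations rested on few libraries. Without the 2 farthest, r was 0.31 in plantaris (adjusted permutation p = 0.55) and 0.49 in soleus (adjusted permutation p = 0.076). Slc4a1 stayed between 2.44 and 4.64 CPM in plantaris apart from 15.3 CPM in HRT HI number 5. Alas1 gave r = -0.22 in plantaris (permutation p = 0.54, adjusted p = 0.54, n = 24) and r = -0.25 in soleus (permutation p = 0.32, adjusted p = 0.37, n = 24), with rho of -0.26 (permutation p = 0.22, adjusted p = 0.26) and -0.43 (permutation p = 0.060, adjusted p = 0.083). Without the 2 farthest libraries in Alas1 its r was -0.12 in plantaris and -0.37 (adjusted permutation p = 0.18) in soleus, while rho in soleus was then -0.57 and passed (adjusted permutation p = 0.025).

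Alas2 in plantaris was also set against Alas2 in the soleus of the same number, a relation chosen after the data were seen. Pearson r was 0.48 (permutation p = 0.15, adjusted p = 0.21, n = 24) and rho 0.10 (permutation p = 0.67, adjusted p = 0.67), and -0.15 (adjusted permutation p = 0.60) without number 5 of HRT HI. Apart from that number, a library with high Alas2 in one muscle did not go with high Alas2 in the other at a level that could be shown with these numbers.

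The genes most like Alas2 over the 48 libraries, by Pearson r of log2 CPM, were Hba-a1 (0.98), Hba-a2 (0.98), LOC103694857 (0.97), LOC103694855 (0.97), Hbb (0.95) and Fam46c (0.94), a gene for a non-canonical poly(A) polymerase. They were followed by ENSRNOG00000019183 (0.93), ENSRNOG00000015903 (0.90), 1 further identifier without a symbol and Lgals5 (0.83), the gene for a galectin of rat red cells. Over the deviations from the group means the same 5 hemoglobin genes and Fam46c led again (0.95 to 0.98), and 4 of the 10 leading genes had no symbol. With the HRT HI libraries numbered 5 left out, these 6 genes still held the first 6 places over 46 libraries, with r from 0.89 to 0.97. The remaining hemoglobin gene, Hba-a3, followed less closely, in place 31 over 48 libraries (0.65) and place 48 over their deviations (0.50). Over 46 libraries it was in place 62 (0.56), and in place 412 (0.31) over their deviations. Slc4a1 was in place 13 over 48 libraries and place 30 over 46. Alas1 was in place 15039 of the 16959 other genes, with r = -0.27. Points of these correlations share depth and group, and they carry no test.

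Relative to hemoglobin, Alas2 had higher medians with the cast in plantaris of both lines and in HRT soleus. In HRT plantaris the ratio ran from 8.84 through 10.5 to 10.9 Alas2 counts per 1000 hemoglobin counts in CTRL and from 10.4 through 13.6 to 14.7 in HI, and 5 of 6 HI libraries lay above every CTRL library. The exception was number 5, at 10.4. In HRT soleus the ratio ran from 11.4 through 12.0 to 14.9 in CTRL and from 12.1 through 13.8 to 17.7 in HI, with 2 of 6 HI libraries above every CTRL library. Number 5, with the most Alas2 of all libraries, had a ratio of 12.5. The LRT medians were 10.9 in CTRL and 12.7 in HI plantaris, and 11.9 in CTRL and 11.5 in HI soleus. In LRT 3 of 6 HI plantaris libraries and 0 of 6 HI soleus libraries lay above every CTRL library of the muscle. Since Alas2 was chosen by its HI against CTRL values, these ratios carry no test.

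**Figure D3:**
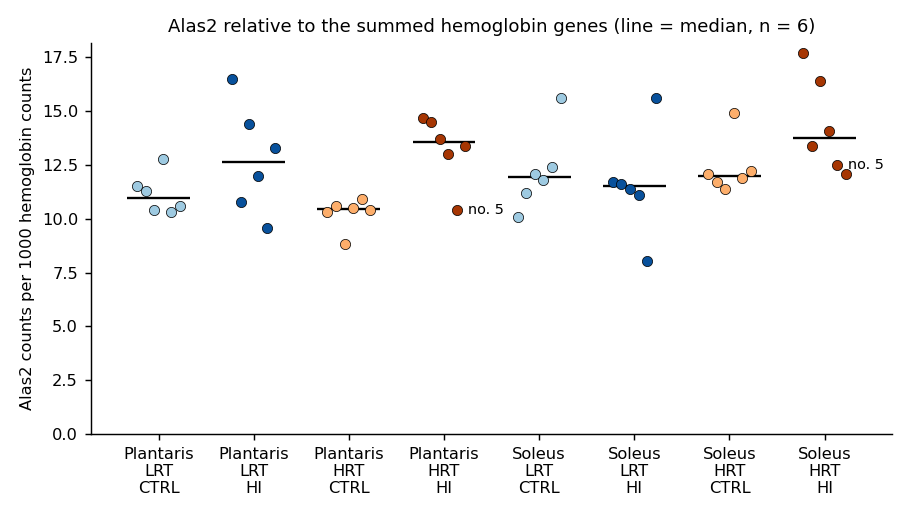
Alas2 counts per 1000 counts of the 6 hemoglobin genes in each library, with group medians as lines. The libraries lie between 8.03 and 17.7, and the HRT HI libraries numbered 5, highest in Alas2 itself, lie at 10.4 in plantaris and 12.5 in soleus.

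With log2 summed hemoglobin CPM as a further term of the model, the log2 fold changes of Alas2 were smaller in size, and that of LRT plantaris changed sign. They were 0.47 ± 0.10 in HRT plantaris, 0.40 ± 0.11 in HRT soleus, 0.14 ± 0.10 in LRT plantaris and 0.00 ± 0.10 (SE) in LRT soleus, where they had been 1.62, 2.86, -0.43 and 0.54 in the same order without the term. DELTA was -0.32 ± 0.15 in plantaris and -0.40 ± 0.14 (SE) in soleus. The plantaris deficit under the cast was no longer seen, at 0.02 ± 0.12 (SE, adjusted p = 0.93 by edgeR) in LRT HI and -0.17 ± 0.11 (SE, adjusted p = 0.25 by edgeR) in HRT HI. Hemoglobin is itself an outcome here, and the part of blood content in the Alas2 values was not tested.

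**Figure D4:**
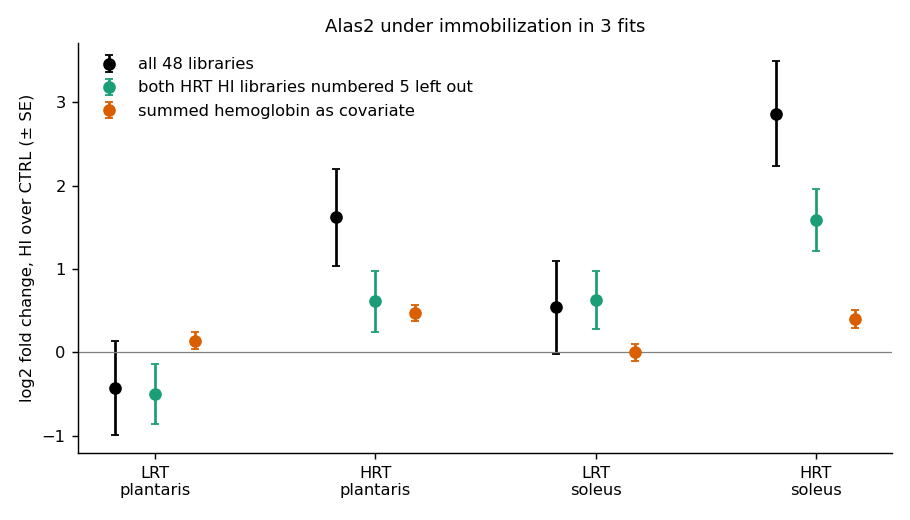
Log2 fold change of Alas2, HI over CTRL, with its standard error, in the 4 comparisons of line and muscle. Black is all 48 libraries, green is without both HRT HI libraries numbered 5 and orange has summed hemoglobin as a covariate, under which HRT soleus goes from 2.86 to 0.40.

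The genes of a red cell list were called by edgeR in HRT soleus and in no other HI against CTRL comparison. For DELTA, which sets the lines against each other, 0 of 8 were called in plantaris and 0 of 8 in soleus. Their median DELTA was -2.08 in plantaris and -2.09 in soleus, and -0.88 and -0.79 without the libraries numbered 5. A difference between the lines was thus not shown for these genes. This list held the 6 hemoglobin genes, Slc4a1 and Lgals5, all of which passed the filter on low counts. Over all tested genes the median log2 fold change was 0.01 to 0.02 in the 4 comparisons with TMM and 0.07 to 0.25 with plain library totals. The share of rises among the called genes was then 52.7% and 84.7% in LRT plantaris, 46.6% and 83.4% in HRT plantaris, 52.8% and 83.0% in LRT soleus, and 49.1% and 64.1% in HRT soleus. The sign of the Alas2 value was the same under both scalings. The genes of the red cell list were taken from among those that the study called on these libraries, so its counts are not independent evidence. Nor are the 8 genes separate signals, since 6 are hemoglobin genes whose close copies can share counts. In HRT soleus 8 of 8 rose by edgeR, against 7.95% of all tested genes that rose, with a median log2 fold change of 2.79 and 0.01 over all genes. Hba-a1 went from a mean of 118 CPM to 986 CPM (log2 fold change 3.01 ± 0.69, SE, adjusted p = 0.0029 by edgeR). Slc4a1 went from 4.84 CPM to 16.0 CPM (1.52 ± 0.38, SE, adjusted p = 0.0060 by edgeR), with HI and CTRL libraries that did not overlap, as for 2.25% of all genes in this direction. Without the libraries numbered 5 the median was 1.41 and Slc4a1 was at 0.72 ± 0.17 (SE, adjusted p = 0.0036 by edgeR). Then 6 of 8 rose, Hba-a1 by 1.67 (adjusted p = 0.0059 by edgeR), and Lgals5 (1.40, adjusted p = 0.068) and Hba-a3 did not pass. With soleus fitted alone by edgeR 0 of 8 passed and 8 of 8 had an unadjusted p under 0.05, where Hba-a1 had a log2 fold change of 2.33 (adjusted p = 0.057 by edgeR).

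In the other HI against CTRL comparisons 0 of 8 red cell genes passed by edgeR, DESeq2 or limma-voom. In HRT plantaris 7 of 8 had an unadjusted p under 0.05 by edgeR, 7 by DESeq2 and 1 by limma-voom, and in the LRT muscles 0 had. In HRT plantaris their median log2 fold change was 1.47, where 11.0% of all genes passed in either direction, and Hba-a1 was at 1.43 ± 0.63 (SE, adjusted p = 0.13 by edgeR). Without the libraries numbered 5 the median there was 0.19 and Hba-a1 was at 0.20 ± 0.41 (SE), beside 0.61 ± 0.37 (SE) for Alas2. In LRT plantaris the median was -0.56 and in LRT soleus 0.54, where 28.7% and 13.9% of all genes passed. Alas2 had the sign of the list's median in all 4 comparisons.

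Alas1, the housekeeping synthase, went the other way from Alas2 in HRT. In HRT plantaris it ran from 77.3 through 90.0 to 121 CPM in CTRL and from 31.1 through 41.1 to 70.6 CPM in HI, so the groups did not overlap, as for 5.40% of all genes in this direction. It fell in LRT plantaris (log2 fold change -1.06 ± 0.19, SE, adjusted p = 6.0e-05 by edgeR), HRT plantaris (-1.05 ± 0.19, SE, adjusted p = 5.3e-04) and HRT soleus (-0.56 ± 0.19, SE, adjusted p = 0.034), and was at -0.45 ± 0.18 (SE, adjusted p = 0.097) in LRT soleus. The falls in plantaris of both lines and in HRT soleus also passed without the libraries numbered 5. With soleus fitted alone the HRT soleus value was -0.57 (adjusted p = 0.073 by edgeR).

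**Figure D5:**
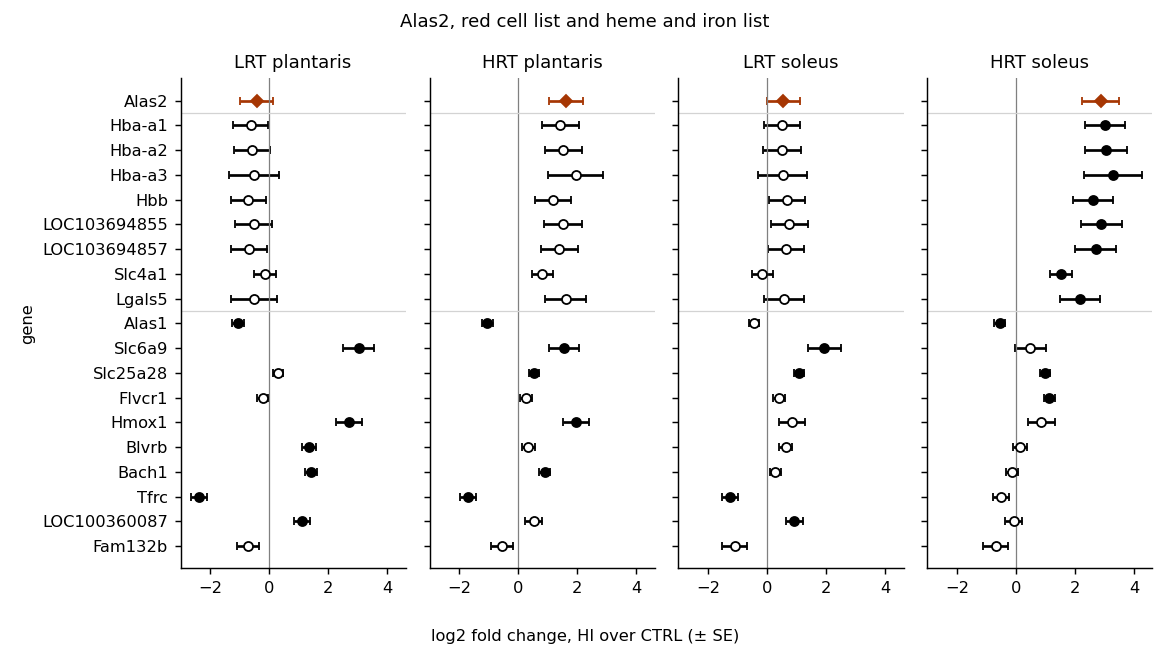
Log2 fold change, HI over CTRL, with its standard error, for Alas2 (diamond), the 8 red cell genes and the 10 heme and iron genes in the 4 comparisons. Filled circles passed an adjusted p of 0.05 by edgeR and open circles did not, and Alas2 carries no test. In HRT soleus the 8 red cell genes are filled and lie above 0, Slc4a1 at 1.52 beside 2.86 for Alas2, and in LRT soleus Slc4a1 is at -0.17 beside 0.54 for Alas2. Alas1 lies below 0 in each panel.

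Of the 10 genes of the heme and iron list, which were likewise chosen from genes called in the study, 5 rose and 2 fell in LRT plantaris, 4 rose and 2 fell in HRT plantaris, 3 rose and 1 fell in LRT soleus, and 2 rose and 1 fell in HRT soleus. Of all tested genes 15.1% rose and 13.6% fell in LRT plantaris, 5.11% and 5.85% in HRT plantaris, 7.36% and 6.58% in LRT soleus, and 7.95% and 8.23% in HRT soleus. The medians of the list were 0.70, 0.43, 0.51 and 0.03 on the log2 scale, where all genes had 0.01 to 0.02. For DELTA 0 of the 10 genes were called in plantaris and 0 in soleus. The list held genes of supply, synthesis, export and breakdown, which are given in that order.

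Among genes of supply, Tfrc, the transferrin receptor that takes up iron, fell in LRT plantaris from a mean of 197 CPM to 39.1 CPM (log2 fold change -2.38 ± 0.28, SE, adjusted p = 2.3e-07 by edgeR). It also fell in HRT plantaris (-1.69 ± 0.27, SE, adjusted p = 1.8e-04) and LRT soleus (-1.26 ± 0.27, SE, adjusted p = 0.0015), and was at -0.52 ± 0.27 (SE, adjusted p = 0.18) in HRT soleus. Slc6a9, a glycine transporter, rose in LRT plantaris (3.02 ± 0.53, SE, adjusted p = 5.7e-05), HRT plantaris (1.55, adjusted p = 0.045) and LRT soleus (1.94, adjusted p = 0.014), but from means of 0.549 to 1.07 CPM. Slc25a28, the mitochondrial iron carrier mitoferrin 2, rose in LRT soleus (1.08), HRT soleus (0.97) and HRT plantaris (0.52) and was at 0.28 (adjusted p = 0.22) in LRT plantaris. Fam132b, the gene for the hormone erythroferrone that red cell precursors release, was at or under a mean of 1.33 CPM in each group and passed in none of the 4 comparisons.

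Flvcr1, known as a heme exporter, rose in HRT soleus from a range of 5.86 to 6.95 CPM in CTRL to a range of 11.3 to 20.1 CPM in HI (log2 fold change 1.12 ± 0.19, SE, adjusted p = 1.3e-04 by edgeR). It did not pass in the other comparisons, at -0.23 in LRT plantaris, 0.26 in HRT plantaris and 0.40 in LRT soleus. Hmox1, the heme oxygenase that opens the heme ring, rose in LRT plantaris (2.70 ± 0.45, SE, adjusted p = 3.7e-05 by edgeR) and HRT plantaris (1.95 ± 0.45, SE, adjusted p = 0.0056), and was at 0.83 (adjusted p = 0.21) in LRT soleus and 0.85 (adjusted p = 0.19) in HRT soleus. Bach1, the heme-binding repressor of Hmox1, rose in plantaris of both lines (1.41 in LRT and 0.89 in HRT). Blvrb, a biliverdin reductase, rose in LRT plantaris (1.35), and LOC100360087 rose in LRT plantaris (1.11) and LRT soleus (0.92). In HRT soleus, where Alas2 had its largest log2 fold change, Hmox1, Blvrb, Bach1, Tfrc, Slc6a9, LOC100360087 and Fam132b did not pass.

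A list of 4 red cell genes that muscle also uses had a median log2 fold change of -0.94 in LRT plantaris, -0.52 in HRT plantaris, -0.36 in LRT soleus and -0.32 in HRT soleus, beside -0.43, 1.62, 0.54 and 2.86 for Alas2. Gpx1, a glutathione peroxidase, fell in all 4 comparisons, by 0.87 in LRT plantaris, 1.02 in HRT plantaris, 1.10 in LRT soleus and 1.20 in HRT soleus on the log2 scale. Ank1, the gene for ankyrin 1, fell in LRT plantaris (-1.26) and HRT plantaris (-0.69). Bpgm, the enzyme that makes 2,3-bisphosphoglycerate, fell in LRT plantaris (-1.02), and Cat, the gene for catalase, rose there (1.26). Of the 4 genes, 4, 2, 1 and 1 were called in LRT plantaris, HRT plantaris, LRT soleus and HRT soleus, where 28.7%, 11.0%, 13.9% and 16.2% of all tested genes were called in either direction.

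White blood cell genes were listed because they can come with blood too. The list cannot tell cells in the blood from cells in the tissue. Its genes too were taken from those that the study called on these libraries, so their counts are not independent evidence. In HRT soleus 8 of 13 rose and 0 fell, where 7.95% of all tested genes rose and 8.23% fell. Those that rose included S100a9 of neutrophils (2.35 ± 0.71, SE, adjusted p = 0.021 by edgeR), Lilrb3 (2.03 ± 0.45, SE, adjusted p = 0.0022) and RT1-Ba of MHC class II (1.03 ± 0.23, SE, adjusted p = 0.0026). Also called were Clec7a, Clec9a, Lilrb4, Tbc1d10c and Rgs1. Some of these genes were low, with HRT CTRL soleus means of 1.04 CPM for S100a9, 0.944 for Lilrb3, 0.725 for Clec7a and 0.410 for Rgs1. S100a9 ran from 0.0935 to 3.23 CPM in CTRL and from 1.32 to 18.9 CPM in HI, so its groups overlapped. The summed level of the list in HRT soleus ran from 31.9 to 46.1 CPM in CTRL and from 56.5 to 77.6 CPM in HI, so the groups did not overlap, and number 5 was at 62.3 CPM, within the range of the other HI libraries. In HRT plantaris the sum ran from 28.5 to 73.7 CPM in CTRL and from 34.1 to 55.4 CPM in HI, where number 5 was the lowest. Pik3ap1 alone went there from a mean of 24.1 CPM to 7.91 CPM, and the list's median log2 fold change was 0.73. The list had 3 genes that rose and 3 that fell in LRT plantaris, 2 and 3 in HRT plantaris, and 2 and 0 in LRT soleus. Of all tested genes 15.1% rose and 13.6% fell in LRT plantaris, 5.11% and 5.85% in HRT plantaris, and 7.36% and 6.58% in LRT soleus. None of the white cell genes was at 0 in all libraries of a group. Siglec5, Siglec10 and Pik3ap1 fell in plantaris of both lines, Dok3 rose in LRT plantaris (0.91), and RT1-DMa passed in none of the 4 comparisons. With summed hemoglobin in the model 8 of 13 rose in HRT soleus, where 1223 of 16960 tested genes rose. The list's median log2 fold change was then 1.21, and 1.11 without the term. Without the libraries numbered 5 it was 1.16, and 8 of 13 rose beside 1398 of 17066 tested genes. For DELTA 0 of 13 were called in plantaris and 0 in soleus. The part of white cells in the HRT soleus values was not tested.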

How the data were processed

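RNA sequencing libraries of plantaris and soleus (48, from 24 rats) were grouped by the deposited labels. According to the labels and the methods of the study, Salmon 0.9.1 was run by the authors on Ensembl transcripts of Rnor_6.0, and tximport gave gene totals. The table the authors deposited holds estimated counts, taken here as not scaled between libraries, of which 66.0% were not whole (tolerance 1e-06). The methods also name a length normalization scaled to TPM, and whether the deposited counts carry it is not stated. The counts were rounded before the fits. The kit, and so the strand of the counts, is given differently by the labels and the methods. Depth, as the total of the estimated counts, was 26.8 M to 36.4 M, and the counts carry counting error only within a library. Replicates are separate rats within a group.

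Genes were kept by filterByExpr (16960), libraries scaled by TMM, and all 48 fitted with the 8 groups and RIN by the quasi-likelihood test of edgeR 4.0.16 in R 4.3.3, with Benjamini-Hochberg adjustment over all tested genes. For each gene the groups shared a common estimate of the spread. The chain was tested on simulated data. Plantaris and soleus of the same number were checked for pairing. In LRT CTRL, LRT HI and HRT HI every same-numbered pair correlated over 0.1 across genes (6 of 6 in each, from 0.13 to 0.39), and in HRT CTRL 4 of 6 did. The labels do not say that a number is a rat, and the pairing comes from this check. Same-numbered HI and CTRL libraries are different rats and 0 pairs correlated over 0.1. In each group, counts of the pairs of replicates differed by more than sampling noise (mean chi-square per gene at least 12.0), so no library was counted as a copy. Correlations used log2 CPM with a prior count of 2 and permutation within groups, 2-sided. Alternatives were limma-voom (limma 3.58.1), DESeq2 1.42.0 and those named in the closing section.

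Symbols came from the gene tables of the study, which pair 1149 of 31998 identifiers and hold the genes called there. Fold changes and p-values in those tables were not used. RefSeq upstream sequences (GRCr8) were matched by symbol, for 6 of 9 genes sought. Slc4a1, LOC103694855 and LOC103694857 had no entry. Named genes are Alas2, every gene of the lists and the 10 genes most like Alas2 over the libraries and over deviations from the group means, with at most 2 printed by identifier. Alas2 and the lists were chosen with earlier results of these data known.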

Additional observations from a re-analysis of the deposited data

Results flagged for a closer look

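Each value given here is the highest or lowest of a group of 6 libraries whose gap to its neighbour, over the range of the group, exceeded Dixon's critical value at 95%. Of 48 groups checked, 15 had such a library. The checks reuse the same libraries for related measures, so this number cannot be set against a rate by chance. In HRT HI, number 5 was the highest in plantaris for Alas2 (47.2 CPM), summed hemoglobin (4544 CPM), Slc4a1 (15.3 CPM) and Lgals5 (4.14 CPM). Number 5 was also the highest in HRT HI soleus for Alas2 (187 CPM), summed hemoglobin (14976 CPM), Slc4a1 (55.1 CPM) and Lgals5 (12.6 CPM). In HRT CTRL soleus, number 3 was the highest for Alas2 (10.3 CPM) and summed hemoglobin (907 CPM). Lgals5 was highest in LRT CTRL plantaris number 3 (1.02 CPM), the library of that group with the most Alas2 as well (17.1 CPM). Alas1 was highest in LRT HI plantaris number 5 (65.5 CPM) and in LRT CTRL soleus number 3 (135 CPM). Alas2 per 1000 hemoglobin counts was lowest in HRT CTRL plantaris number 3 (8.84) and highest in HRT CTRL soleus number 4 (14.9), the library with the least hemoglobin of all 48. The 2 HRT HI libraries numbered 5 had RIN of 8.5 and 7.8. The causes of these values were not tested.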

How the results depend on the processing

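Of 306 values recomputed under the alternatives other than single left-out libraries, 269 kept their direction and their side of the threshold or moved by less than the spread between replicates. Leaving out RIN, keeping genes with any count, fitting each muscle alone, using limma-voom or DESeq2, and putting DESeq2 size factors into edgeR left the 10 HI against CTRL, DELTA and line values of Alas2 within that spread. Library totals without TMM and leaving out both HRT HI libraries numbered 5 were chosen after seeing the data. Without the libraries numbered 5 the log2 value of Alas2 was 0.61 for HI against CTRL in HRT plantaris, -1.11 for DELTA in plantaris and -0.96 in soleus, and -0.29 and -0.03 for LRT against HRT in HI plantaris and soleus. With the hemoglobin covariate it was 0.47 and 0.40 for HI against CTRL in HRT plantaris and soleus, -0.32 and -0.40 for DELTA, 0.19 and 0.07 for LRT against HRT in CTRL plantaris and soleus, and -0.13 in HI plantaris. For plantaris against soleus in LRT HI it was -1.40 without RIN, -1.48 with the replicate block, -1.49 without the libraries numbered 5 (adjusted p = 0.0055 by edgeR), all past the threshold, and 0.02 with the hemoglobin covariate. In HRT HI it was -1.46 by DESeq2 (adjusted p = 0.048), -1.68 without RIN, -1.27 with the replicate block and -1.23 without the libraries numbered 5 (adjusted p = 0.021 by edgeR), all past the threshold. With single libraries left out, the log2 value ranged from 0.70 to 1.88 for HRT plantaris HI against CTRL, from -2.30 to -1.10 for DELTA in plantaris, from -2.61 to -0.95 for DELTA in soleus, and from -1.46 to -0.26 and from -1.70 to 0.00 for LRT against HRT in HI plantaris and soleus. The value nearest 0 was the one without number 5 of HRT HI in each of these. The ranges for plantaris against soleus were -0.28 to 0.07 in HRT CTRL (0.07 without soleus number 3) and -2.20 to -0.48 in HRT HI, which passed without plantaris number 5 (adjusted p = 0.0071 by edgeR) or without soleus number 1 (-1.86, adjusted p = 0.040 by edgeR).

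With each muscle fitted alone, 0 red cell genes were called in HRT soleus (8 in the fit of all libraries), and of the red cell genes also used by muscle 1 in HRT plantaris, 0 in LRT soleus and 0 in HRT soleus. Of that list 0 were called in HRT plantaris without RIN or with genes of any count, and 1 with library totals. The white cell list had 1 gene called in LRT soleus by limma-voom or with the muscles fitted alone, and with library totals 4 there and 8 in HRT plantaris. Over all genes the muscles fitted alone called 1493 in LRT soleus and 1207 in HRT soleus (2364 and 2744 in the fit of all libraries), and library totals called 3019 in HRT plantaris (1859 with TMM). The correlation of Alas2 with Slc4a1 was 0.31 in plantaris and 0.49 in soleus without the 2 farthest libraries, and 0.30 and 0.56 without the libraries numbered 5, none past the threshold after adjustment. That of Alas2 between the muscles was -0.02 without the 2 farthest and -0.15 without number 5. The replicate block gave 2.44 for HI against CTRL in HRT soleus, where cast and uncast rats of a number are not paired, and of the gene lists only the white cell list in LRT soleus had another number of calls with it (3 against 2). Causes of these changes were not tested. Depth is not a limit for Alas2, whose lowest count was 88, but Lgals5, Fam132b, Clec7a, Dok3 and Rgs1 were near or under 1 CPM in most groups.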
